A study of Mus musculus with 6 samples.

Results

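The delta protocadherins were followed as a family of 9 genes (*Pcdh1*, *Pcdh7*, *Pcdh8*, *Pcdh9*, *Pcdh10*, *Pcdh17*, *Pcdh18*, *Pcdh19* and *Pcdh20*), chosen by symbol from the 55357 genes in the count files. All 9 passed the filter on low counts and were tested among 21876 genes. The data were 6 RNA-seq libraries of wild-type mouse primary neuronal cultures, which the methods describe as cortical and hippocampal neurons of C57BL/6N embryos at embryonic day 18. Of these, 3 libraries came from cultures that received lentiviral particles with a scrambled control shRNA (shCtrl) and the other 3 from cultures that received particles with an shRNA against *Pla2g4e* (sh*Pla2g4e*), a phospholipase gene of neurons. Per the methods, the lentivirus was added at DIV4 (days in vitro) and the cultures were collected at DIV14, and both groups carried a lentivirus. Per the study's text the lentivirus carried a single targeting sequence, sh2, so that no other sequence stands beside it in this comparison.

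Protocadherins are cell surface proteins with extracellular cadherin repeats, through which cells that carry the same protocadherin stick to each other. Delta protocadherins lie as single genes across the genome, unlike the clustered protocadherins, and fall into a delta-1 group (*Pcdh1*, *Pcdh7* and *Pcdh9* here), whose tails bind protein phosphatase 1, and a delta-2 group (*Pcdh8*, *Pcdh10*, *Pcdh17*, *Pcdh18* and *Pcdh19*), several of which recruit the actin-regulating WAVE complex. *Pcdh20* is placed apart from both. In the developing cortex and hippocampus they take part in axon growth, sorting of neurons and the making and removal of synapses.

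Between 17054717 and 23570180 reads were counted per library. Levels are given as CPM, reads scaled to library size with TMM factors, and a DEG is a gene with an adjusted p under 0.01 from edgeR's quasi-likelihood test with Benjamini-Hochberg adjustment over all genes tested. The targeted gene *Pla2g4e* gave 38.0, 35.1 and 35.4 CPM with shCtrl (replicates 1, 2 and 3) and 21.8, 14.2 and 18.7 CPM with sh*Pla2g4e*, which is a log2 fold change of −0.99 with a standard error of 0.131 (adjusted p = 0.000124, edgeR). The whole table held 876 down-regulated and 543 up-regulated DEGs, or 3395 DEGs in all with the replicate number as a block. With libraries scaled by size alone, 43.3% of DEGs were down-regulated in place of 61.7%. The summed level of 8 pan-neuronal marker genes was 5222 to 5616 CPM in shCtrl and 4604 to 5054 CPM in sh*Pla2g4e* cultures, without overlap. Of these 8 genes 5 had a log2 fold change below 0 and 3 above 0, with a median of −0.17. The mean of *Map2* went from 1638 to 1196 CPM and that of *Tubb3* from 304 to 94.9 CPM. The means of *Snap25*, *Nefl* and *Eno2* were higher in sh*Pla2g4e* cultures. The sum of 8 astrocyte markers was 2726 to 3493 CPM in shCtrl and 1836 to 3000 CPM in sh*Pla2g4e* cultures. The sum of 7 glutamatergic markers was 2152 to 2341 CPM in shCtrl and 1606 to 1891 CPM in sh*Pla2g4e* cultures, with no overlap, and *Slc17a7*, a vesicular glutamate transporter, fell by 1.31 on the log2 scale, from 745 to 299.6 CPM (adjusted p = 3.69e-07, edgeR), whereas another such transporter, *Slc17a6*, rose by 0.91, from 47.3 to 88.3 CPM (adjusted p = 0.00388, edgeR). Of the 7 glutamatergic genes 4 had a log2 fold change above 0, with a median of 0.019. The sum of 9 GABAergic markers was 836 to 909 and 798 to 888 CPM. Markers of the oligodendrocyte lineage summed to 516 to 585 CPM in shCtrl and 536 to 640 CPM in sh*Pla2g4e* cultures. Mural and fibroblast markers summed to 40.5 to 43.7 and 41.4 to 53.6 CPM. Microglial and endothelial markers each summed to under 11 CPM in every library, with *Cldn5*, a tight junction gene of endothelium, at 0. Of these lists, 3 pan-neuronal, 2 glutamatergic, 2 GABAergic and 2 astrocyte genes were down-regulated and 1 pan-neuronal, 1 glutamatergic and 2 GABAergic genes were up-regulated, against 4.00% and 2.48% of all genes tested. With the replicate block 3 of 8 pan-neuronal, 3 of 7 glutamatergic, 3 of 9 GABAergic, 5 of 8 astrocyte and 1 of 8 oligodendrocyte lineage genes were lower and 2 pan-neuronal, 2 glutamatergic, 2 GABAergic, 1 astrocyte, 1 endothelial and 2 mural or fibroblast genes higher, against 9.02% and 6.50% of all genes tested (edgeR). The part of such shifts in the changes of protocadherins was not tested. In such bulk cultures, fewer cells of a type and less RNA per cell cannot be told apart.

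The family, chosen with earlier results of these data known, was down-regulated in part. Of the 9 delta protocadherins, 2 were down-regulated (*Pcdh19* and *Pcdh10*), against 4.00% of all genes tested. With the replicate block 3 were (*Pcdh1* as well), against 9.02% of all genes tested (edgeR). None was up-regulated with edgeR, DESeq2 or limma after voom, against 2.48% of all genes tested with edgeR, and at an unadjusted p under 0.05 all 4 members that passed (*Pcdh19*, *Pcdh10*, *Pcdh1* and *Pcdh7*) were lower, against 12.9% of all genes tested that passed and were lower. Groups did not overlap for 4 of the 9 (*Pcdh1*, *Pcdh10*, *Pcdh18* and *Pcdh19*), against 30.0% of all genes tested. The log2 fold change was below 0 for 8 of 9 members, with a median of −0.20, where the median of all genes tested was 0.03. Scaled by the upper quartile or by library size alone, 7 of 9 were below 0.

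**Figure D1:**
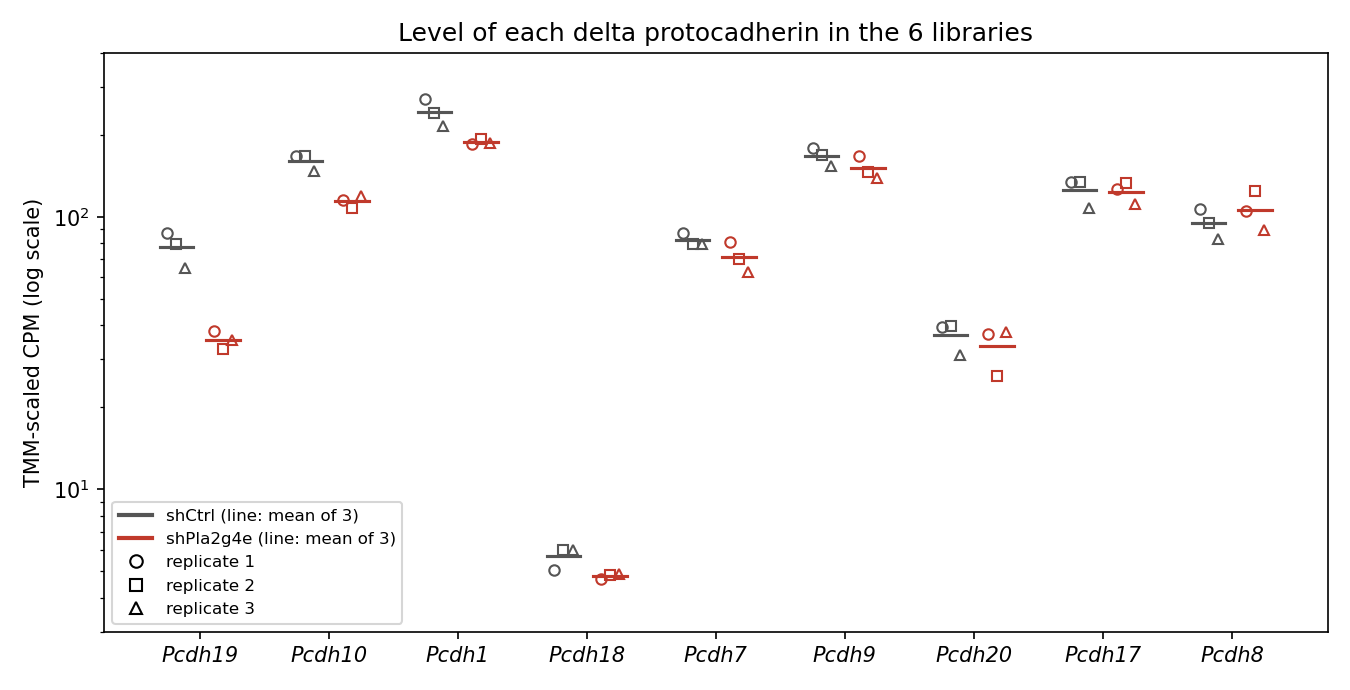
Level of each delta protocadherin in the 6 libraries, as TMM-scaled CPM on a log axis, ordered by log2 fold change. Symbols mark replicates 1 to 3, lines the mean of 3 libraries, grey the shCtrl and red the sh*Pla2g4e* cultures. The *Pcdh19* libraries of both groups are the farthest apart, and those of *Pcdh17*, *Pcdh20* and *Pcdh8* are mixed.

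*Pcdh19* (ENSMUSG00000051323, chromosome X, 132483609 to 132589736 on the minus strand of GRCm39) fell the most. It encodes a delta-2 protocadherin that works together with N-cadherin, and its loss of function causes an epilepsy that affects mainly females. It gave 87.2, 79.4 and 65.3 CPM with shCtrl (replicates 1, 2 and 3) and 38.3, 32.6 and 35.4 CPM with sh*Pla2g4e*. Every sh*Pla2g4e* library was well below the lowest shCtrl library, which was replicate 3. Its mean was 77.3 ± 11.1 CPM with shCtrl and 35.4 ± 2.82 CPM with sh*Pla2g4e* (SD, n = 3), so that 45.8% of the *Pcdh19* level remained. On the log2 scale the change was −1.12 (standard error 0.107, 95% interval −1.35 to −0.90, adjusted p = 5.6e-06, edgeR), which placed *Pcdh19* 60th of all genes by p and 42nd among those that were lower. It was called under all 16 alternatives that were run, with log2 fold changes between −1.23 and −1.03. *Pcdh19* is X-linked, and *Xist*, the RNA expressed from the inactive X chromosome, had a mean of 402 CPM in both groups.

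*Pcdh10* (ENSMUSG00000049100, chromosome 3, 45332833 to 45390058 on the plus strand) was the other DEG. Its product is a delta-2 protocadherin of axon outgrowth that also takes part in the removal of excitatory synapses. It gave 167, 168 and 147 CPM with shCtrl (replicates 1, 2 and 3) and 116, 108 and 119 CPM with sh*Pla2g4e*. All sh*Pla2g4e* libraries lay below all shCtrl libraries, and 71.0% of the level remained. On the log2 scale the change was −0.49 (standard error 0.0824, 95% interval −0.67 to −0.32, adjusted p = 0.000822, edgeR). The call was lost without shCtrl replicate 2 (log2 fold change −0.46, adjusted p = 0.011) and held under the other 15 alternatives.

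*Pcdh1* (ENSMUSG00000051375, chromosome 18, 38318967 to 38345106 on the minus strand) was the most abundant member in CPM and came just short of the threshold. It encodes a delta-1 adhesion protein found in neurons and epithelia. It gave 270, 241 and 215 CPM with shCtrl (replicates 1, 2 and 3) and 185, 193 and 187 CPM with sh*Pla2g4e*. The groups did not overlap, and the shCtrl libraries were spread over a wider range than those of sh*Pla2g4e*. Its change was −0.36 on the log2 scale (standard error 0.0874, 95% interval −0.54 to −0.17, adjusted p = 0.0123, edgeR). It passed the threshold under 6 of 16 alternatives, among them limma after voom (adjusted p = 0.0097) and the replicate block (adjusted p = 1.56e-05). The adjusted p over the alternatives ran from 1.56e-05 to 0.0584.

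The remaining delta-1 members had lower means in sh*Pla2g4e* cultures and did not pass the test. *Pcdh7* (ENSMUSG00000029108, chromosome 5, 57875309 to 58290572 on the plus strand), whose product binds protein phosphatase 1 and the phosphatase inhibitor Set, gave 87.5, 79.5 and 79.4 CPM with shCtrl (replicates 1, 2 and 3) and 80.7, 70.1 and 62.8 CPM with sh*Pla2g4e*, with a log2 fold change of −0.20 (95% interval −0.40 to −0.0034, adjusted p = 0.186, edgeR). *Pcdh9* (ENSMUSG00000055421, chromosome 14, 93250846 to 94128115 on the minus strand), a large gene expressed by cortical neurons, gave 179, 169 and 154 CPM with shCtrl (replicates 1, 2 and 3) and 168, 147 and 139 CPM with sh*Pla2g4e*, with a log2 fold change of −0.14 (95% interval −0.33 to 0.045, adjusted p = 0.342, edgeR). In both genes each sh*Pla2g4e* library was below the shCtrl library of the same number, yet the groups overlapped. With the replicate block the adjusted p was 0.0259 for *Pcdh7* and 0.097 for *Pcdh9*, which left both outside the threshold.

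Within delta-2, the members other than *Pcdh19* and *Pcdh10* did not pass the test. *Pcdh8* (ENSMUSG00000036422, chromosome 14, 80004215 to 80008752 on the minus strand), known as arcadlin, is induced by neuronal activity and draws N-cadherin into the cell. It gave 107, 95.1 and 82.9 CPM with shCtrl (replicates 1, 2 and 3) and 106, 125 and 89.2 CPM with sh*Pla2g4e*. It was the only member with a positive log2 fold change, 0.17 (95% interval −0.080 to 0.41, adjusted p = 0.416, edgeR). The value rested on single libraries, since it was 0.036 when sh*Pla2g4e* replicate 2 was left out and 0.074 when shCtrl replicate 3 was, but 0.26 when shCtrl replicate 1 was left out and 0.28 when sh*Pla2g4e* replicate 3 was. *Pcdh17* (ENSMUSG00000035566, chromosome 14, 84681003 to 84776442 on the plus strand), which acts at synapses and along axon bundles, gave 134, 134 and 108 CPM with shCtrl (replicates 1, 2 and 3) and 127, 134 and 111 CPM with sh*Pla2g4e*. In both groups of *Pcdh17* replicate 3 was the lowest, and the log2 fold change was −0.017 (95% interval −0.22 to 0.19, adjusted p = 0.945, edgeR), a sign that turned when libraries were scaled by the upper quartile or by size alone.

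*Pcdh18* (ENSMUSG00000037892, chromosome 3, 49697745 to 49711774 on the minus strand) was the scarcest member. Its product binds the adaptor Dab1, and it gave 5.05, 5.99 and 5.99 CPM with shCtrl (replicates 1, 2 and 3) and 4.68, 4.85 and 4.91 CPM with sh*Pla2g4e*. These levels rest on 86 to 135 reads per library, and the log2 fold change was −0.24 (95% interval −0.62 to 0.15, adjusted p = 0.465, edgeR). *Pcdh20* (ENSMUSG00000050505, chromosome 14, 88702179 to 88708832 on the minus strand), an adhesion gene outside both groups, gave 39.5, 39.9 and 31.0 CPM with shCtrl (replicates 1, 2 and 3) and 37.3, 26.1 and 37.7 CPM with sh*Pla2g4e*. The lowest of all 6 libraries was sh*Pla2g4e* replicate 2, and the log2 fold change was −0.13 (95% interval −0.41 to 0.16, adjusted p = 0.625, edgeR). The intervals of *Pcdh18* and *Pcdh20* hold the change of *Pcdh1*.

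By group, the 3 delta-1 genes among the 9 had log2 fold changes from −0.36 to −0.14 with a median of −0.20, and none was a DEG with edgeR without the replicate block, although *Pcdh1* was one with the block, the robust fit, no filter, DESeq2 or limma, and without shCtrl replicate 3. *Pcdh1* and *Pcdh7* had an unadjusted p under 0.05. The 5 delta-2 members had log2 fold changes from −1.12 to 0.17 with a median of −0.24, and 2 were down-regulated with and without the block, against 4.00% of all genes tested without it and 9.02% with it. The widest range thus lay within delta-2, between *Pcdh19* and *Pcdh8*.

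*Pcdh11x*, a further delta-1 protocadherin that was not among the 9, was also down-regulated. It gave 35.3, 50.5 and 39.3 CPM with shCtrl (replicates 1, 2 and 3) and 21.8, 23.8 and 26.4 CPM with sh*Pla2g4e*, with no overlap. Its change was −0.80 on the log2 scale (standard error 0.126, adjusted p = 0.000499, edgeR), and the call held under all 16 alternatives. Of the other non-clustered protocadherins, *Pcdh15*, a gene of hair cell tip links, had 76.8 to 95.8 CPM in shCtrl and 96.0 to 113 CPM in sh*Pla2g4e* cultures (log2 fold change 0.33, adjusted p = 0.0358 and, with the replicate block, 0.000144, edgeR). *Pcdh12* was near 0 in both groups, so that 1 of these 3 genes was down-regulated and none up-regulated without the block, against 4.00% and 2.48% of all genes tested, and 1 was down-regulated and 1 up-regulated with it, against 9.02% and 6.50% (edgeR).

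The sh2 guide strand and some of its sites in the down-regulated protocadherins are shown because the guide can pair through its seed (bases 2 to 8) with mRNAs other than its target. The sh2 target lies in the coding sequence of *Pla2g4e* (chr2:120182753-120182771, minus strand of GRCm38), and no annotated transcript of another gene holds all 19 bases of it. The 3′ UTR sites of *Pcdh1*, a second coding site of *Pcdh10* and the coding sites of *Pcdh7*, *Pcdh17* and *Pcdh20* are not printed. In the lines that follow, capitals mark the guide's seed, and in the target and in each site the bases GTGGCCA that pair with it.
sh2 target in *Pla2g4e*: ggaagatggtgGTGGCCAa
sh2 guide strand: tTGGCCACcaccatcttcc
*Pcdh19*, 3′ UTR site (chrX:133584437-133584443): ctgcatctaaaGTGGCCAtttatacagat
*Pcdh19*, coding site (chrX:133687135-133687141): tgatcgctaacGTGGCCAaggacgcgcgg
*Pcdh11x*, 3′ UTR site (chrX:120909324-120909330): tattttatattGTGGCCAtattctgttaa
*Pcdh10*, 3′ UTR site (chr3:45419562-45419568): gcggagtcatcGTGGCCAcgtgtaggacc
*Pcdh10*, coding site (chr3:45379418-45379424): ggtttcagacgGTGGCCAactcacggacc

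The site occurred in an annotated 3′ UTR (GENCODE vM21, GRCm38) of 3 of the 9 members, which were *Pcdh19*, *Pcdh10* and *Pcdh1*, and also of *Pcdh11x*. In *Pcdh19* it lay 3545 bases after the stop codon in all 3 coding transcripts, and in *Pcdh10* 136 bases after it in only 1 of 4. *Pcdh1* had 2 such sites, in 1 and in 2 of its 4 coding transcripts, and *Pcdh11x* had 1, in 2 of 6. Among the 15692 tested genes with an annotated 3′ UTR, 14.6% held the site, against 44.2% of the 855 down-regulated and 7.72% of the 479 up-regulated ones. The 3 members with the site had log2 fold changes of −1.12, −0.49 and −0.36 and the 6 members without it −0.24 to 0.17. The longest annotated 3′ UTR had 4042 to 5128 bases in the members with the site in any 3′ UTR. In those without it the length was 596 (*Pcdh8*) to 5445 bases (*Pcdh17*). Over the tested genes, the 3′ UTR of the transcript with the longest coding sequence had a median of 945 bases. On that measure it had 5128 bases in *Pcdh19*, 3079 in *Pcdh10* and 655 in *Pcdh1*. Coding sites were found in *Pcdh7* (2), *Pcdh10* (2), *Pcdh17* (1), *Pcdh19* (1) and *Pcdh20* (1), thus in members with and without a 3′ UTR site. The part of these sites in the changes was not tested, and the counts cannot tell transcripts of a gene apart.

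**Figure D2:**
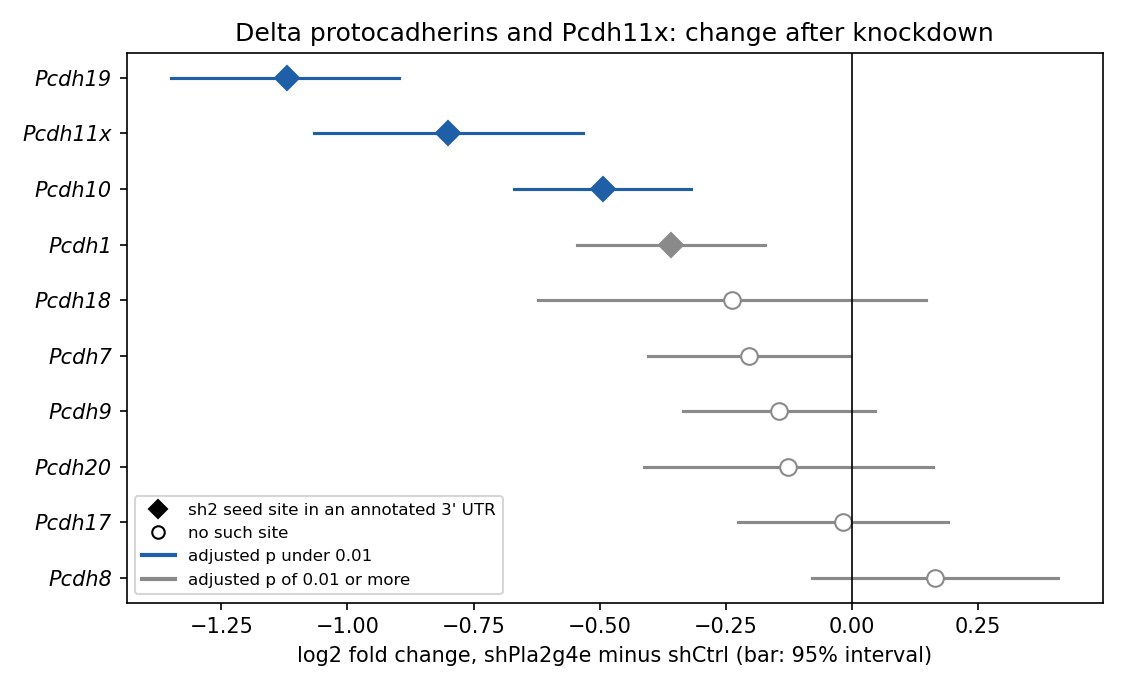
Log2 fold changes (sh*Pla2g4e* minus shCtrl, horizontal axis) of the 9 delta protocadherins and *Pcdh11x*, with 95% intervals from edgeR's quasi-likelihood fit. Filled diamonds have a seed site of sh2 in an annotated 3′ UTR, open circles have none, and blue marks an adjusted p under 0.01. The 4 diamonds have the lowest values, from −1.12 to −0.36, and the interval of *Pcdh1*, the highest of them, overlaps those of the circles other than *Pcdh8*.

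Levels were then compared between members per kilobase of exon. In shCtrl cultures *Pcdh1* (27.5 ± 3.12 CPM per kb, SD, n = 3), *Pcdh9* (24.7 ± 1.86) and *Pcdh8* (21.0 ± 2.69) formed the upper part of the order, each overlapping the next in its libraries, while those of *Pcdh1* and *Pcdh8* did not overlap. *Pcdh10* (10.1 ± 0.732) and *Pcdh17* (9.66 ± 1.17) came next and overlapped each other. *Pcdh7* (7.75 ± 0.435), *Pcdh19* (7.39 ± 1.06) and *Pcdh20* (6.70 ± 0.909) followed, each overlapping the next, though *Pcdh7* and *Pcdh20* did not overlap, and *Pcdh18* (1.06 ± 0.102) stood last. The libraries of *Pcdh8* and *Pcdh10*, *Pcdh17* and *Pcdh7*, and *Pcdh20* and *Pcdh18* did not overlap. On this scale *Pcdh1* exceeded 91.8% of the genes tested, *Pcdh19* 70.0% and *Pcdh18* 40.2%. Exon length counted all annotated exons of a gene, 15888 bases for *Pcdh10* and 4538 for *Pcdh8*, so the order depends on the annotation. Without length, the shCtrl mean of *Pcdh10* was 161 CPM and that of *Pcdh8* 95.1 CPM.

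The summed level of the 9 members was 126, 118 and 104 CPM per kb in shCtrl replicates 1, 2 and 3 and 105, 104 and 94.6 CPM per kb in sh*Pla2g4e* replicates 1, 2 and 3. Each sh*Pla2g4e* sum was below the shCtrl sum of the same number, and the groups overlapped on this scale. In CPM without length the sums were 889 to 1077 in shCtrl and 787 to 863 in sh*Pla2g4e* cultures, with no overlap. *Pcdh19* made up 6.02% to 6.60% of the sum per kb in shCtrl and 3.01% to 3.57% in sh*Pla2g4e* cultures, and *Pcdh10* 8.33% to 8.98% and 6.54% to 7.94%. *Pcdh1* made up 23.2% to 24.3% in shCtrl and 20.1% to 22.5% in sh*Pla2g4e* cultures. The shares of *Pcdh8* (17.7% to 18.7% and 20.8% to 26.5%) and *Pcdh17* (8.03% to 8.79% and 9.06% to 9.93%) were higher without overlap. These shares add up to a fixed total, so that a lower share of some members raises the others, and the smallest p that an exact permutation test of 3 against 3 libraries can give is 0.10, so none was run.

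**Figure D3:**
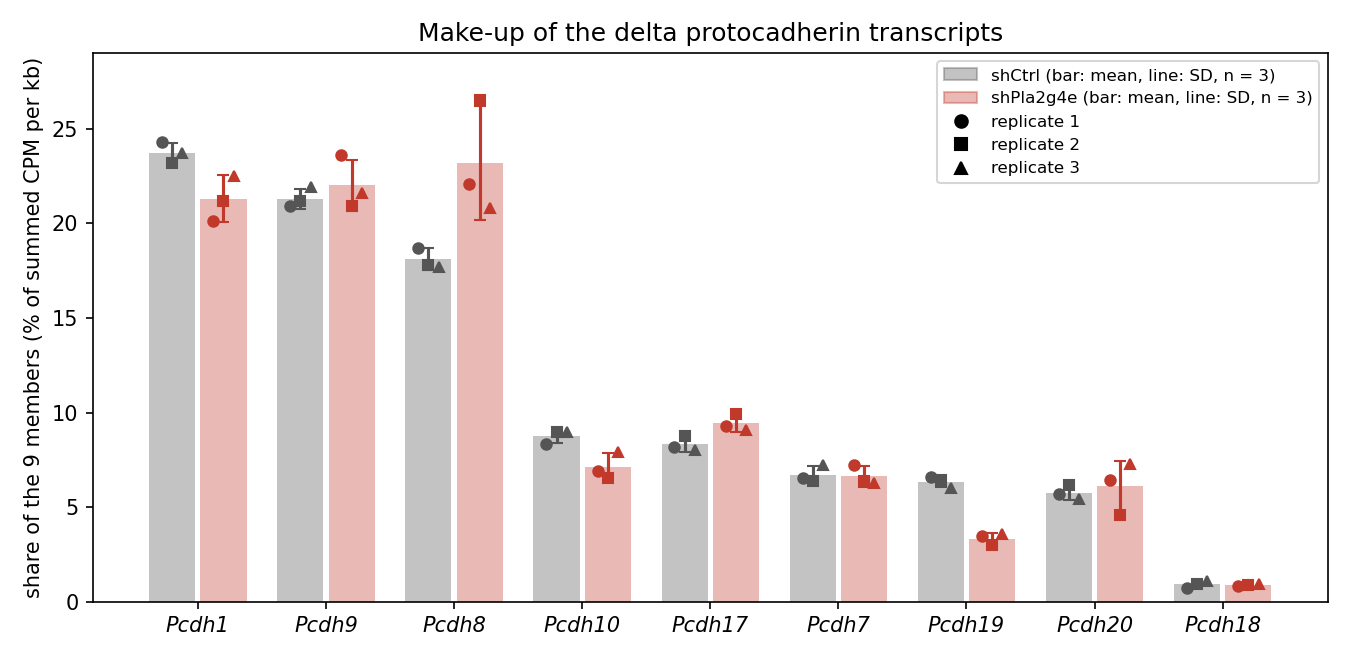
Share of each member in the summed level of the 9 delta protocadherins (percent of summed CPM per kb of exon), with bars for the mean, lines for the SD of 3 libraries and symbols for replicates 1 to 3. The share of *Pcdh19* was 6.36% in shCtrl and 3.35% in sh*Pla2g4e* cultures, and that of *Pcdh8* 18.1% and 23.2%.

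Some members share reads with other genes. The counting recorded no strand option, so that reads of a gene on the opposite strand were counted as well or left out where exons overlap. Such overlaps covered 21.1% of the exon bases of *Pcdh7*, 9.61% of *Pcdh8* and 0.969% of *Pcdh10*, and none in the other 6 members. For *Pcdh7* 25.0% and for *Pcdh8* 9.82% of the stretches of 50 bases in the longest coding transcript also occurred in another gene's transcript. Both strands were searched, so a gene on the opposite strand can count in both measures. The levels of *Pcdh7* and *Pcdh8* are thus uncertain. The share of such stretches was 0.0781% for *Pcdh19* and 0 for the remaining members.

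The neighbourhood of the members was also read. *Pcdh8*, *Pcdh9*, *Pcdh17* and *Pcdh20* all lie on chromosome 14, and none was a DEG. The nearest tested coding genes of *Pcdh19* were the formin gene *Diaph2*, 3120 kb away, and the tendon gene *Tnmd*, 162 kb away. Their log2 fold changes were −0.10 (adjusted p = 0.68) and 0.80 (adjusted p = 0.122, edgeR). The nearest ones of *Pcdh10* were D3Ertd751e, 3580 kb away, and *Pabpc4l*, 1010 kb away. Their log2 fold changes were 0.071 (adjusted p = 0.786) and −0.62 (adjusted p = 0.521, edgeR). Of the 14 nearest neighbours that are no members, 1 was up-regulated, against 2.48% of all genes tested, and none down-regulated, against 4.00% (edgeR). It was *Olfm4*, which lies between *Pcdh8* and *Pcdh17* and rose by 1.51 on the log2 scale, from 1.95 to 5.58 CPM (adjusted p = 0.000266, edgeR). With the replicate block *Diaph3*, after *Pcdh17*, was also higher (log2 fold change 0.92, adjusted p = 0.000802) and *Slc7a11*, after *Pcdh18*, lower (log2 fold change −0.60, adjusted p = 3.74e-07), against 6.50% and 9.02% of all genes tested (edgeR). *Arap3*, *Dele1*, *Stim2*, *Arap2*, *Cnmd*, *Tdrd3* and 4921530L21Rik, the remaining neighbours, were not called with or without the block.

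The promoters of 8 members were found in RefSeq sequences of GRCm38.p6, from 250 bases before to 50 after the start. A CCAAT box, searched for on both strands as CCAAT, was present in 7 of the 8 (all but *Pcdh7*), against 37.4% of 32851 promoters, and was picked after the sequences had been read. The longer form AGCCAAT was present in *Pcdh8*, *Pcdh17*, *Pcdh18* and *Pcdh19*, against 7.86% of promoters. The stretches around it in these 4 members, and around 1 CCAAT of *Pcdh10*, which lacks the longer form, are shown on the strand of the gene, with capitals for ATTGG, the reverse complement of CCAAT. They were picked because they look alike, in members that fell and members that did not. Not shown are a second CCAAT in *Pcdh10* and in *Pcdh17* and those of *Pcdh9* and *Pcdh20*, which lie on the strand of the gene.
*Pcdh19* (chrX:133689044-133689068, 65 bases before the start): ctgcgcgctgATTGGctagtgcctg
*Pcdh18* (chr3:49757334-49757358, 32 bases before the start): aagctcgctgATTGGctggaagcga
*Pcdh17* (chr14:84443495-84443519, 58 bases before the start): ccccacgccgATTGGctggcagaga
*Pcdh8* (chr14:79771366-79771390, 68 bases before the start): ctaagcgaccATTGGctggcccctt
*Pcdh10* (chr3:45378338-45378362, 50 bases before the start): ctcctcggcgATTGGttggcagaat
A match is not evidence of binding. The cyclic AMP response element TGACGTCA (1.79% of promoters), the E-box CACGTG (7.15%) and the MEF2 motif (0.557%) were in none of the 8, and TATAAA (13.6%) was in that of *Pcdh8*.

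The partners of delta protocadherins were described next. The WAVE complex, which builds branched actin and is bound by delta-2 tails, had 2 of 9 genes down-regulated and none up-regulated, against 4.00% and 2.48% of all genes tested, and the log2 fold change was below 0 for 8 of 9 (median −0.21). *Wasf1*, the main WAVE protein of neurons, gave 270, 252 and 232 CPM with shCtrl (replicates 1, 2 and 3) and 190, 189 and 179 CPM with sh*Pla2g4e* (log2 fold change −0.43, standard error 0.0805, adjusted p = 0.00196, edgeR). *Wasf3*, another WAVE protein, fell by 0.33 on the log2 scale, from 171 to 136 CPM (adjusted p = 0.00858, edgeR). *Cyfip2*, a subunit that holds the complex inactive, had means of 555 and 573 CPM (log2 fold change 0.047, adjusted p = 0.824, edgeR). Both calls depended on single libraries. None of the 9 genes was called without shCtrl replicate 1, without shCtrl replicate 2 or without sh*Pla2g4e* replicate 1, and 1 was called without sh*Pla2g4e* replicate 2 or when scaled by the upper quartile or by library size, while 4 were called with the replicate block (*Nckap1* and *Abi2* as well), against 9.02% of all genes tested that were then lower.

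Of 21 other partners and regulators, 3 were down-regulated and 2 up-regulated, against 4.00% and 2.48% of all genes tested, with a median log2 fold change of −0.12. *Dab1*, the reelin adaptor bound by Pcdh18, gave 135, 131 and 131 CPM with shCtrl (replicates 1, 2 and 3) and 74.2, 75.1 and 83.8 CPM with sh*Pla2g4e* (log2 fold change −0.77, standard error 0.0793, adjusted p = 1.17e-05, edgeR). The GABA-A receptor alpha subunits, which Pcdh19 binds, went both ways. *Gabra3* fell by 0.75 on the log2 scale, from 97.7 to 58.2 CPM (adjusted p = 0.000106), and *Gabra5* by 0.49, from 135 to 95.9 CPM (adjusted p = 0.00459), whereas *Gabra2* rose by 0.40, from 128 to 170 CPM (adjusted p = 0.00304, edgeR). *Ctnnb1*, the beta-catenin gene, rose by 0.42 on the log2 scale, from 472 to 631 CPM (adjusted p = 0.00152, edgeR). The calls of *Dab1* and *Gabra3* held under all 16 alternatives, that of *Gabra5* under 10. Neither *Ctnnb1* nor *Gabra2* was called without shCtrl replicate 2 or without sh*Pla2g4e* replicate 1, and *Gabra2* was not called without sh*Pla2g4e* replicate 2 either.

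*Cdh2*, the N-cadherin gene whose product pairs with Pcdh19, gave 174, 178 and 174 CPM with shCtrl (replicates 1, 2 and 3) and 178, 207 and 190 CPM with sh*Pla2g4e* (log2 fold change 0.13, adjusted p = 0.351, edgeR). *Mef2c*, a transcription factor of the MEF2 family that acts upstream of *Pcdh10* in synapse removal, gave 1216, 1083 and 895 CPM with shCtrl (replicates 1, 2 and 3) and 951, 831 and 732 CPM with sh*Pla2g4e*, and the change on the log2 scale was −0.34 (adjusted p = 0.0558). With the replicate block its adjusted p was 3.3e-06, and 6 partners were then down-regulated and 3 up-regulated, against 9.02% and 6.50% of all genes tested (edgeR).

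Among 18 classical and type II cadherins tested of 19, 2 were down-regulated and 1 up-regulated (3 and 1 with the replicate block), against 4.00% and 2.48% of all genes tested (9.02% and 6.50% with the block), with a median log2 fold change of 0.057. *Cdh8*, a type II cadherin of synaptic targeting, gave 79.0, 90.9 and 67.2 CPM with shCtrl (replicates 1, 2 and 3) and 44.9, 40.5 and 39.3 CPM with sh*Pla2g4e* (log2 fold change −0.93, standard error 0.105, adjusted p = 2.83e-05, edgeR). *Cdh4*, or R-cadherin, ranged from 62.8 to 87.3 CPM with shCtrl and from 41.8 to 46.7 CPM with sh*Pla2g4e* (log2 fold change −0.72, adjusted p = 0.000345, edgeR). *Cdh13*, a cadherin anchored in the membrane by a lipid, rose by 0.57 on the log2 scale, from 264 to 393 CPM (adjusted p = 0.00935), a call that was lost under 9 of 16 alternatives, for example with DESeq2 (adjusted p = 0.0577). The adjusted p of *Cdh13* was 0.0468 without shCtrl replicate 2, 0.0366 without shCtrl replicate 3, 0.0273 without sh*Pla2g4e* replicate 1 and 0.0472 without sh*Pla2g4e* replicate 2. A seed site of sh2 lay in an annotated 3′ UTR of *Cdh8* and *Cdh4*, but not of *Wasf1*, *Wasf3*, *Dab1*, *Gabra3* and *Gabra5*. Among all down-regulated genes with an annotated 3′ UTR, 44.2% held one. *Wasf1*, *Wasf3* and *Dab1*, and also *Ctnnb1*, which rose, had 1 coding site each. No share over all genes was taken for coding sites.

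**Figure D4:**
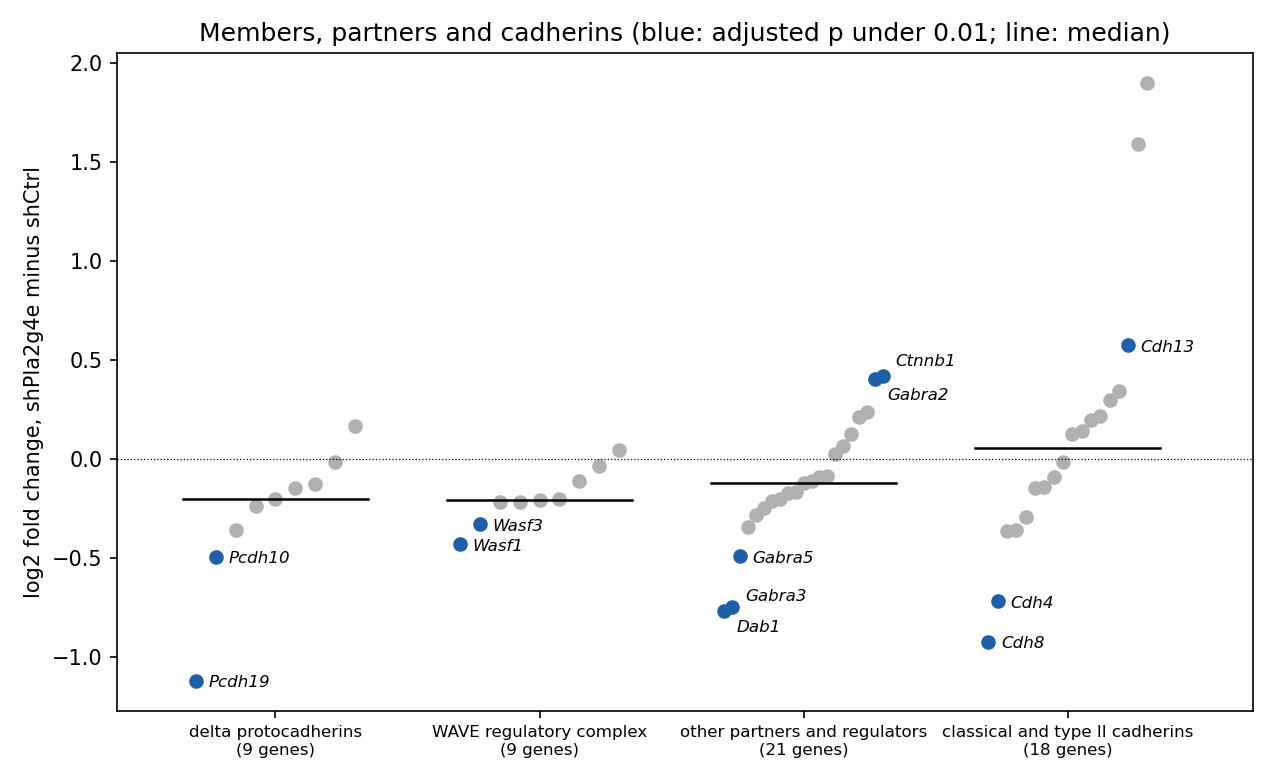
Log2 fold changes (sh*Pla2g4e* minus shCtrl) of the 9 delta protocadherins, 9 genes of the WAVE complex, 21 other partners and regulators and 18 cadherins, sorted within each list. Blue points with names had an adjusted p under 0.01, and black lines are medians. *Pcdh19* has the lowest value of all lists at −1.12, and the 2 highest grey points are the barely expressed *Cdh3* and *Cdh5*.

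Activity-regulated genes were described because *Pcdh8* is one of the genes that activity induces. Of 9 such genes, *Fosb* (log2 fold change 0.88, adjusted p = 0.000749), *Fos* (0.53, adjusted p = 0.000711) and *Nr4a1* (0.47, adjusted p = 0.00748) rose and none was called lower, against 2.48% and 4.00% of all genes tested (edgeR). *Fosb* missed the threshold in the robust fit (adjusted p = 0.0247), and *Nr4a1* did so without shCtrl replicate 1 or 2 or without sh*Pla2g4e* replicate 1 or 3, with a highest adjusted p of 0.0655. With the replicate block 5 were higher and 2 lower, against 6.50% and 9.02% of all genes tested.

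The level of *Pcdh19* over the 6 libraries was most like that of *Tppp*, *Myo16*, *Bsn*, *Tex2* and *Dcc*. Likeness was the root-mean-square distance between log2 CPM profiles, each centred on its own mean, over 6 libraries and among the 10907 genes whose mean log2 CPM was 3 or more. It was 0.047 for *Tppp*, a microtubule-stabilizing protein, 0.0505 for *Myo16*, a myosin that binds the WAVE complex, 0.063 for *Bsn*, the active zone scaffold bassoon, 0.066 for *Tex2* and 0.0697 for *Dcc*, the netrin receptor. Their log2 fold changes were −1.10, −1.03, −1.14, −1.11 and −1.01. Of the 7 other members at that level (all but *Pcdh18*), *Pcdh10* was the nearest to *Pcdh19* (distance 0.323, rank 422), followed by *Pcdh1* (0.393, rank 927), and *Pcdh8* was the farthest (0.663, rank 8575). A seed site of sh2 lay in an annotated 3′ UTR of *Tppp*, *Myo16*, *Bsn* and *Tex2* and not of *Dcc*.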

How the data were processed

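RNA-seq was available for 3 shCtrl and 3 sh*Pla2g4e* libraries (poly(A) RNA, stranded kit). The authors deposited raw read counts, 1 value for each gene and library, with no normalization applied. The submitters' processing notes name FastQC 0.11.8, STAR 2.7.0d, featureCounts 1.6.0 and GRCm39, and the file headers name GENCODE vM28, whereas the methods state mm10 and GENCODE M18. Gene coordinates are those of the files. Symbols, transcripts, seed sites and promoters come from GENCODE vM21 or RefSeq on GRCm38, through gene identifiers (52081 of 55357 matched).

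Genes that reached 6 reads in any 1 library were kept, as in the study, and were tested here with edgeR 4.0.16 in R 4.3.3 (TMM, glmQLFit, glmQLFTest, adjusted p under 0.01). Standard errors were taken from the F statistic. The script was tested on simulated data. Alternatives were leaving out each library, a replicate block, a threshold of 0.05, other tests (limma 3.58.1 after voom, which the study used, DESeq2 1.42.0 and edgeR's robust fit), other scalings (DESeq2 size factors, the upper quartile, library size alone) and other filters (none, 10 reads or more in all libraries, filterByExpr). The labels do not say whether replicates were separate cultures, so p-values measure the spread between these libraries, which may be technical. Over 10908 genes, the deviations of same-numbered libraries from their group's mean had correlations of 0.392, 0.189 and 0.461, and those of other pairs −0.393 to 0.108. By this check the numbers in the labels pair the libraries, but the tests reported have no pairing unless the replicate block is named, and the blocked value or count is given where a call changes. For a gene with about 100 reads per library, such as *Pcdh18*, counting error limits what can be read. Its standard error was 0.181 beside a log2 fold change of −0.24 (edgeR).

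Members and lists were chosen with earlier results of these data known. Genes named are all members, *Pla2g4e*, the DEGs (at most 5) of each list other than markers, *Cdh2*, *Mef2c*, *Wasf1*, *Cyfip2*, *Pcdh11x*, the 5 profiles nearest to *Pcdh19* and the nearest neighbours. Any further gene was named with its values known. The lists were other protocadherins, the WAVE complex, partners, cadherins, activity-regulated genes and markers of neurons (pan-neuronal, glutamatergic, GABAergic), astrocytes, the oligodendrocyte lineage, microglia, endothelium, and mural cells and fibroblasts.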

Additional observations from a re-analysis of the deposited data

How the results depend on the processing

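Of the 144 log2 fold changes of members recomputed under 16 alternatives, 130 kept their direction and side of the threshold. *Pcdh17* turned positive with upper-quartile scaling (0.018), library size alone (0.0602) and at least 10 reads in every library (0.0023), and without a library (−0.12 to 0.054), and *Pcdh20* did so without sh*Pla2g4e* replicate 2 (−0.24 to 0.029 over the libraries left out). *Pcdh1* gained a call in 6, *Pcdh10* lost its call in 1, without shCtrl replicate 2. The number of down-regulated members was 2 or 3 under all alternatives but the leave-outs (1 to 3), and none was up-regulated in any. Over all genes, 2349 DEGs were called without a filter, 2813 at a threshold of 0.05 and 695 to 1613 when a library was left out. The replicate block, which the pairing calls for, gave 3395 DEGs and 3 down-regulated members. Without length, the share of *Pcdh19* was 7.76% in shCtrl and 4.27% in sh*Pla2g4e* cultures. That of *Pcdh8* was then 9.56% and 12.8%, in place of 18.1% and 23.2% per kb. For *Pcdh10* it was 16.2% and 13.8%, in place of 8.76% and 7.13%. The causes of these shifts were not tested. Depth limits *Pcdh18*, at 86 to 135 reads per library.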
